A study of Mus musculus with 16 samples.

Results

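Insulin-like growth factor 1 (*Igf1*), its receptor *Igf1r* and 6 IGF-binding proteins (*Igfbp2* to *Igfbp7*) were followed in 2 mouse data sets. The 8 genes were taken by symbol from 29629 genes in a single-cell UMI table and from 47729 genes in a tendon read-count table, and all 8 passed the filter on low counts in each comparison. The single cells came from 1 line of mouse induced pluripotent stem cells that carries the ScxGFP transgene, a green reporter driven by the regulatory region of *Scx*, the transcription factor that marks the tendon lineage. T0 is the mesodermal stage before TGF-β2, and T3, T6 and T9 had 3, 6 and 9 days of recombinant human TGF-β2 at 10 ng/ml. By the study's methods, mesoderm was first induced with the Wnt agonist CHIR and the Hedgehog inhibitor cyclopamine, which were withdrawn before T0. Each time point had 3 plates of 384 wells that received sorted live single cells (Hoechst stained and negative for Sytox), and the study's methods name no gate on the ScxGFP signal. There was no culture without TGF-β2 at T3, T6 or T9, so time in culture and TGF-β2 cannot be told apart. The medium at all 4 time points held insulin, which at high concentrations can also act on the IGF1 receptor. The tendon samples were whole Achilles tendons of 2-week-old littermates, 2 wild-type (Scx_Wt) and 2 homozygous *Scx* knockouts (Scx_homoKO), whose allele the labels do not describe. Nothing in the labels says that plates of 1 time point came from separate cultures, so p-values measure the spread between plates.

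IGF1 is a secreted growth factor that binds IGF1R, a cell-surface tyrosine kinase, and signals through PI3K, AKT and mTOR toward growth and matrix synthesis. The binding proteins hold IGFs outside the cell and either keep them from the receptor or carry them to it, and secreted proteases such as PAPP-A cut some of them to free the ligand. IGFBP6 prefers IGF2, and IGFBP7 binds IGFs weakly. In tendon, IGF1 is known as a stimulus of tenocyte growth and collagen synthesis.

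The genes lie at 7 places on the genome (GRCm38). *Igfbp2* (chr1:72824503-72852474, plus strand) and *Igfbp5* (chr1:72857932-72874884, minus strand) are neighbours whose 3′ ends face each other across 5457 bases. *Igf1* is at chr10:87858265-87937042, *Igf1r* at chr7:67952827-68233668, *Igfbp3* at chr11:7206086-7213923, *Igfbp4* at chr11:99041244-99054392, *Igfbp6* at chr15:102144362-102149511 and *Igfbp7* at chr5:77349240-77408041. All 8 are protein-coding. An antisense gene, *Igf1os*, lies within the span of *Igf1* but shares no exon base with it and had 10 UMIs in all plates. *Igfbp7* shares 85 exon bases with *Polr2b* on the other strand, which had 1892 UMIs in all plates and 1994 counts in tendon. How reads in the shared bases were counted is not given, which limits the levels of *Igfbp7*.

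The 250 bases before the start of 4 genes (RefSeq, GRCm38.p6) are shown because *Igfbp2* and *Igfbp3* differed between knockout and wild-type tendon, and *Igfbp5* and *Igfbp6* differed in opposite directions between *Tnmd*+ and *Tnmd*- cells. Each is printed 5′ to 3′ on the gene's strand, and capitals mark E-boxes (CANNTG, the same on both strands), the motif class that basic helix-loop-helix factors such as *Scx* bind. The RefSeq starts are not always the ends of the gene spans given above. The window of *Igfbp6* stops short of its span, that of *Igfbp5* reaches into its span, and that of *Igf1*, counted below, lies within its span.
*Igfbp2*, chr1:72824230-72824479, plus strand: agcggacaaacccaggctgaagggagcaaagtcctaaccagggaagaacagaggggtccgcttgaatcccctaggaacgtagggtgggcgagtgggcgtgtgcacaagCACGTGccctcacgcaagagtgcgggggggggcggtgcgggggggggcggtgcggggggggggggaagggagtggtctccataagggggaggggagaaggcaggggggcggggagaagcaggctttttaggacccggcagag
*Igfbp3*, chr11:7213924-7214173, minus strand: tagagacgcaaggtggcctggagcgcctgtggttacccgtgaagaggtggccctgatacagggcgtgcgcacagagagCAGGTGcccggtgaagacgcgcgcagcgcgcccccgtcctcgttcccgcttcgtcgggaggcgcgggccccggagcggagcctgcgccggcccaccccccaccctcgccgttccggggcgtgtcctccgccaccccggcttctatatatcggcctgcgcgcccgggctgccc
*Igfbp5*, chr1:72874866-72875115, minus strand: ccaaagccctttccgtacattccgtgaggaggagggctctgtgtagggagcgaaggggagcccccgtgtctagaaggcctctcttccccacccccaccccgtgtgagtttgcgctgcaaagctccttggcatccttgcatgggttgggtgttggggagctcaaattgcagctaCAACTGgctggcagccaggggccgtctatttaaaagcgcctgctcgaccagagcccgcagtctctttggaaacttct
*Igfbp6*, chr15:102143936-102144185, plus strand: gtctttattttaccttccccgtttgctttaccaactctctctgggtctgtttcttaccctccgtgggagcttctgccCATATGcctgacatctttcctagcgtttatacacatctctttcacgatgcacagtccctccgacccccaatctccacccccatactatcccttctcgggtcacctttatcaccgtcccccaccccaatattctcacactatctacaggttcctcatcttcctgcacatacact
Each of the 4 windows held 1 E-box, and 6 of the 8 genes had 1, with none found for *Igf1r* and *Igfbp7*. Of 32851 promoters with a window of this length, 66.2% held at least 1, so an E-box here is common. The core letters that Smad proteins bind, CAGAC or GTCTG on the other strand, were found in 2 of the 8 windows, those of *Igf1r* and *Igfbp6*, against 42.2% of all promoters. A match in letters is a description and says nothing of binding.

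The plates held 1921125 to 4657093 UMIs, and the tendon samples 11188270 to 12398560 counts. The tenocyte list (8 genes) summed to 373 to 417 counts per 1000000 (CPM) at T0, where *Tnmd* and *Kera* were at 0, and to 16975 to 37836 at T9. Of the plates of T3 to T9, 5 had fewer reads without an annotated feature, while the other 4 and the 3 T0 plates had more. This split moved with the level of *Igf1r* and of *Igfbp5*, whose values are given on each side of it. Levels are CPM, of UMIs in the plates and of reads in tendon, on a TMM scale unless said otherwise, and means are given ± SD over plates.

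Over the 9 days, 7 of the 8 genes rose, and the receptor was not called. Between T0 and T9, *Igf1* and all 6 binding proteins were called higher by edgeR's quasi-likelihood test (Benjamini-Hochberg adjusted p under 0.05), where 45.2% of all 13372 genes tested were called in either direction. The median log2 fold change of the 8 genes was 2.85, beside -0.02 over all genes tested. *Igfbp4* was the most abundant member at each time point, and at T9 it stood at 1869 ± 280 CPM. *Igf1*, *Igfbp2* and *Igfbp3* lay close together at T9, between 571 and 625. A UMI counts 1 captured molecule whatever its length, so no division by length was made. Whether molecules of each gene were captured equally was not tested, which limits this order.

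**Figure D1:**
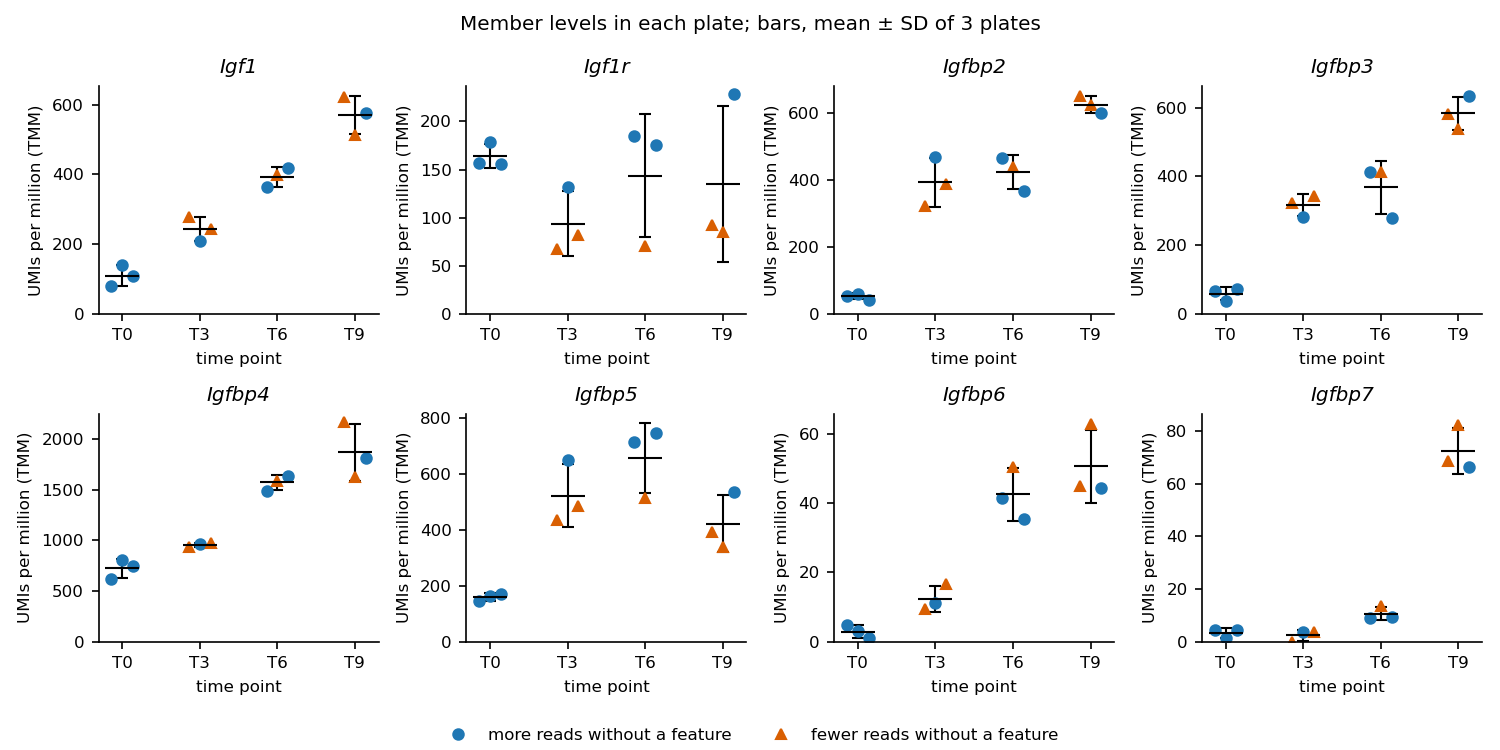
Level of each gene in every plate (CPM of UMIs on a TMM scale, linear axes from 0) by time point, with bars for the mean ± SD of 3 plates. Blue circles are plates with more reads without a feature and orange triangles those with fewer. *Igf1r* separates by symbol at T3, T6 and T9, from 67.6 to 92.0 in the triangles and from 132 to 228 in the circles.

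The ligand *Igf1* rose over the course. The T0 plates had 79.5, 140.3 and 109.8 CPM of it, and the T3 plates 278, 208 and 244. It stood at 363, 397 and 419.5 in the T6 plates and at 623, 512 and 577 in those of T9. No plate overlapped with a plate of the time point before it. The log2 fold change was 1.14 ± 0.21 (SE) from T0 to T3 (adjusted p = 0.000909), 0.69 ± 0.21 from T3 to T6 (adjusted p = 0.0788) and 0.54 ± 0.20 from T6 to T9 (adjusted p = 0.218), all from edgeR. Neither of the later steps passed alone, while T9 against T3 did, at 1.23 ± 0.21 (adjusted p = 0.00131). Between T3 and T6, *Igf1* was called by DESeq2 (0.68), with the library split as a covariate (0.73) and with no filter on low counts (0.72).

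The receptor *Igf1r* had no call in any of the 6 time comparisons. The T0 plates had 157, 178 and 156 CPM, and the T3 plates 67.6, 132 and 81.5. It stood at 185, 70.4 and 176 in the T6 plates and at 92.0, 84.9 and 228 in those of T9. Among the plates of T3 to T9, the 5 with fewer reads without a feature had a median of 81.5 and the 4 with more had 180.3, with no overlap. T9 against T0 was -0.28 ± 0.39 (adjusted p = 0.589) in edgeR over all plates. With the split as a covariate it was 0.37 ± 0.15 (adjusted p = 0.0553), and over only the plates with more such reads, where T9 is 1 plate assumed to vary like the rest, it was 0.46 ± 0.14 (adjusted p = 0.0183). Without the third T9 plate it was -0.89 ± 0.35 (adjusted p = 0.04997, called). The sign of the difference was thus not the same under these fits. T3 against T0 was -0.80 ± 0.40 (adjusted p = 0.140), and it was called with no filter on low counts (-0.86) and over only the 6 plates compared (-0.77).

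*Igfbp2* and *Igfbp3* rose early. *Igfbp2*, which binds both IGFs and can attach to the cell surface, went from 54.1, 59.8 and 42.8 CPM at T0 to 323, 469 and 389 at T3. This was the largest rise of the 8 genes over the first 3 days, a log2 fold change of 2.91 ± 0.20 (edgeR, adjusted p = 1.73e-07). It was 465, 438 and 368 at T6 and 651, 625 and 599.8 at T9, and T9 against T3 was 0.66 ± 0.19 (adjusted p = 0.0294).
*Igfbp3*, the main carrier of IGFs in blood, went from 65.4, 36.6 and 71.9 at T0 to 323, 281 and 344 at T3, a log2 fold change of 2.45 ± 0.25 (adjusted p = 6.79e-06). It stood at 412, 412 and 279 at T6 and at 582, 537 and 633 at T9. Neither gene passed the test between T3 and T6 or between T6 and T9, although DESeq2 (0.58) and the fit with the library split (0.59) called *Igfbp2* in the last step. For T9 against T3, the call on *Igfbp2* was lost without any 1 of 4 plates (T3 replicates 1 and 3, T9 replicates 1 and 2), with log2 fold changes of 0.54 to 0.67. Over only the plates with more reads without a feature, where T3 and T9 are 1 plate each, it was 0.36. The call on *Igfbp3* (0.88) was lost without any 1 of 4 plates (T3 replicates 1 to 3, T9 replicate 1), with 0.80 to 0.95.

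*Igfbp4* started high and was higher later. This binding protein, which inhibits IGF action until PAPP-A cuts it, had 617, 805 and 748 CPM in the T0 plates and 930.2, 964 and 969 in the T3 plates. The T6 plates had 1487, 1588 and 1638, and those of T9 had 2172, 1621 and 1813. T3 against T0 was 0.40 ± 0.18 (edgeR, adjusted p = 0.104; called by DESeq2, adjusted p = 0.0249) and T6 against T3 was 0.72 ± 0.18 (adjusted p = 0.0378). The second call was lost without any 1 of 5 plates, all but the second T6 plate, with log2 fold changes of 0.66 to 0.73.

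*Igfbp5*, a binding protein that also attaches to extracellular matrix, had its highest mean at T6. It went from 145, 164 and 171 CPM at T0 to 434, 647 and 484 at T3 (log2 fold change 1.71 ± 0.23, edgeR adjusted p = 7.64e-05), and had 712, 512 and 745 in the T6 plates and 390.1, 339 and 535 in those of T9. T9 remained above T0 (1.40 ± 0.23, adjusted p = 0.000210). T9 against T6, at -0.64 ± 0.22, did not pass (adjusted p = 0.180). It passed with the library split as a covariate (-0.47, adjusted p = 0.0238) and without the third T9 plate (-0.83, adjusted p = 0.0434). Plates with fewer reads without a feature ranged from 339 to 512, and those with more from 535 to 745.

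*Igfbp6* and *Igfbp7* were the scarce members. *Igfbp6* had 4.68, 2.98 and 0.931 CPM at T0, from 46 UMIs in all, and 9.41, 11.03 and 16.7 at T3 (log2 fold change 2.06 ± 0.40, edgeR adjusted p = 0.00137). It rose again to 41.6, 50.6 and 35.5 at T6 (1.75 ± 0.34, adjusted p = 0.00923) and was 44.9, 62.8 and 44.4 at T9. *Igfbp7*, which is expressed widely in connective tissue and vessels, was held by 51 UMIs at T0 and 22 at T3, where the first plate had none, a count that allows up to 3 of its 1921125 UMIs. Its levels were 8.79, 13.5 and 9.47 at T6 and 68.4, 82.4 and 66.3 at T9, with no overlap. The rise from T6 to T9 was 2.79 ± 0.40 (adjusted p = 0.00387), and *Igfbp7* was the only member called in that step.

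Counted by step, 5 of the 8 genes were called between T0 and T3, all higher (*Igf1*, *Igfbp2*, *Igfbp3*, *Igfbp5* and *Igfbp6*), where 33.2% of all genes tested were called. Between T3 and T6, 2 were called, both higher (*Igfbp4* and *Igfbp6*), against 4.24% of all genes. Between T6 and T9 it was 1 (*Igfbp7*), against 1.62%. Over the longer spans, 7 were higher at T6 than at T0 (background 35.3%), and 6 were higher at T9 than at T3 (background 14.1%), all but *Igf1r* and *Igfbp5*. The T6 against T0 call on *Igfbp7* (1.62) was lost without the second T0 plate, at 1.19 (adjusted p = 0.0611).

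The share of cells with at least 1 UMI depends on depth, which differed between cells, so each cell was also thinned to 3000 UMIs, which 4301 of 4594 cells reached. *Igfbp4* was seen in 91.3% ± 1.00 of T0 cells, 90.5% ± 9.75 of T3 cells and 98.3% ± 0.847 of T9 cells (SD, n = 3 plates). *Igfbp2* went from 20.1% ± 2.49 at T0 to 66.3% ± 15.1 at T3 and 81.3% ± 2.81 at T9, and from 8.59% to 53.9% and 63.7% after thinning. *Igf1* was in 41.9% ± 4.86 of cells at T0 and 39.8% ± 7.47 at T3, an order that turned after thinning, to 23.9% and 30.1%, and in 67.9% ± 6.76 at T9. *Igfbp7* was in 2.62% ± 1.14 of T0 cells, 1.13% ± 0.988 at T3, 5.14% ± 0.923 at T6 and 22.6% ± 0.917 at T9.

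**Figure D2:**
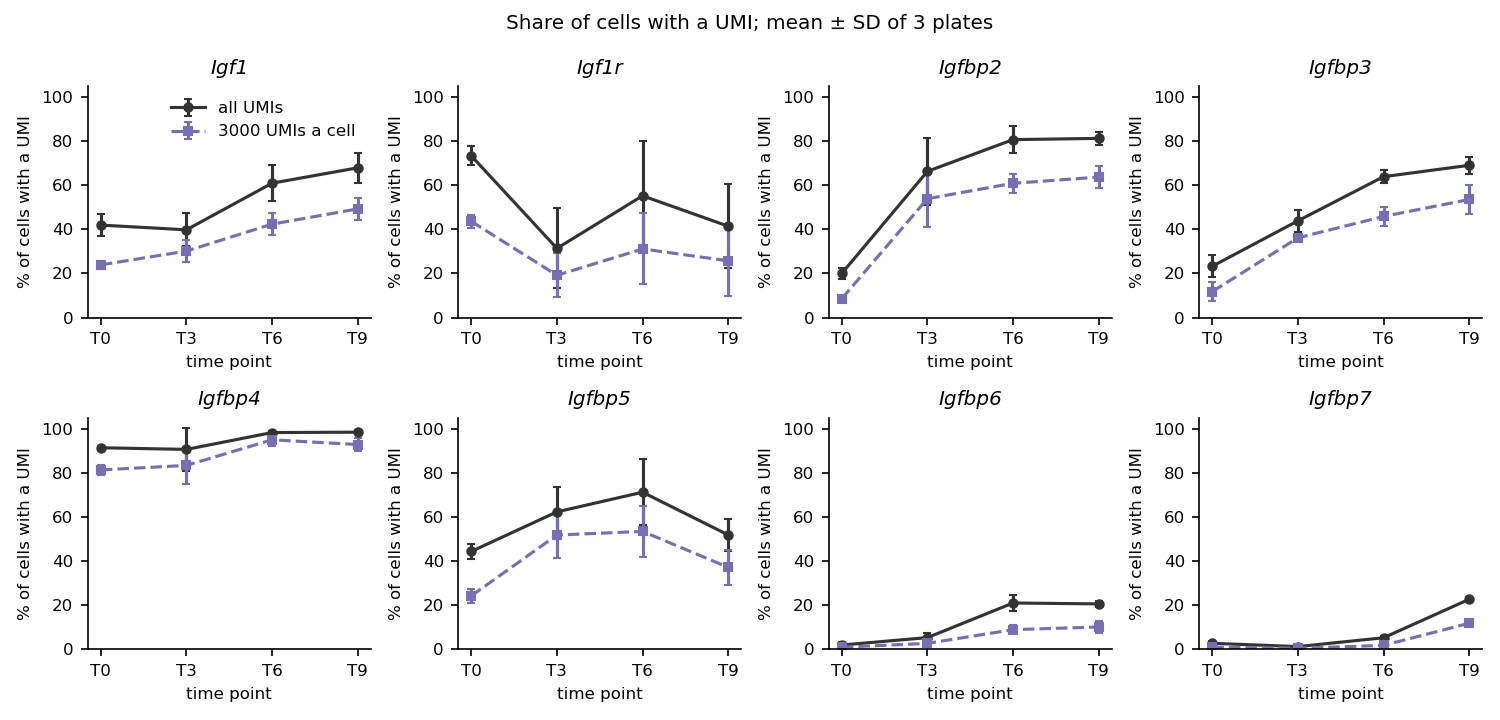
Share of cells (%) with at least 1 UMI of each gene by time point, as mean ± SD of 3 plates, for all UMIs (circles, solid lines) and after thinning each cell to 3000 UMIs (squares, dashed lines). *Igfbp2* rises from 20.1% to 81.3% of cells and *Igfbp7* stays at or below 5.14% until T9, where it reaches 22.6%.

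At T0, *Igfbp2* sat in few cells. The tenth of cells with the most UMIs of *Igfbp2* held 84.6% ± 2.35 of them at T0, and 42.2% ± 4.64 at T3. Cells with UMIs of 3 or more of 6 pluripotency genes (*Tdgf1*, *Utf1*, *Sox2*, *Pou5f1*, *Nanog* and *Dppa5a*) were 9.24% of T0 cells, 106 of 1147, and held 70.3% of the *Igfbp2* UMIs. In them *Igfbp2* stood at 233, 388 and 398 CPM in the 3 plates, beside 24.0, 21.3 and 19.9 in the other cells. In the same cells *Igf1* was at 30.1 ± 2.35 against 145 ± 34.9, and *Igf1r* at 81.1 ± 20.6 against 212 ± 18.7 (mean ± SD over 3 plates, not TMM scaled). The groups did not overlap for *Igfbp2*, *Igf1*, *Igf1r*, *Igfbp4* and *Igfbp5*. How many of all genes were apart in this way was not counted, so it cannot be read as particular to these genes. These values are descriptions with no test, since the threshold of 3 genes was chosen after values were seen. This is a range and not a cell type, since 162 T0 cells held 2 of the genes and 40 held exactly 3, and the selected cells were deeper, with a median of 16143 against 9839 UMIs.

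For epithelial genes, the 100 T0 cells with 3 or more of *Epcam*, *Cdh1*, *Krt8*, *Krt18* and *Cldn6* held 50.2% of the *Igfbp2* UMIs and 29 of the 46 *Igfbp6* UMIs. Leaving out at every time point the cells with 3 or more markers of either list (174 T0 cells, 16 T3 cells, 12 T6 cells and 27 T9 cells) raised the log2 fold change of *Igfbp2* from T0 to T3 from 2.91 to 4.55 ± 0.20 and that from T0 to T9 from 3.58 to 5.32 ± 0.20, both called by edgeR. It raised those of *Igfbp6* from 2.06 to 3.22 ± 0.47 and from 4.07 to 5.27 ± 0.43, also both called. The cells left out held much of the T0 UMIs of both genes, so these increases were set in advance and are no support. At most 17 *Igfbp6* UMIs remained at T0.

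**Figure D3:**
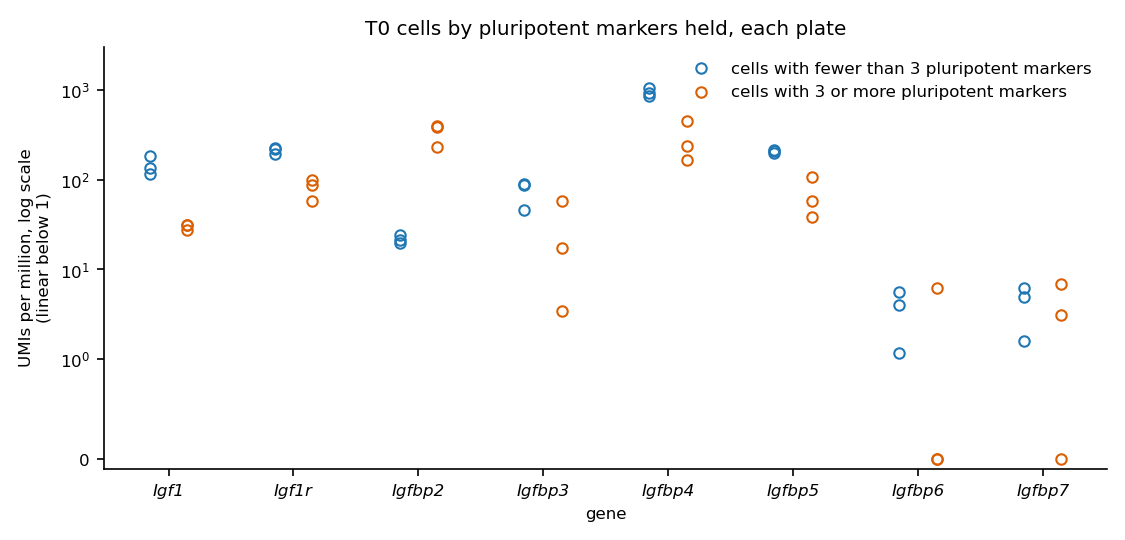
Level of each gene (CPM of UMIs of the same cells, log axis that is linear below 1) in the 3 T0 plates, in cells with 3 or more pluripotency genes detected (orange) and in the other cells (blue). *Igfbp2* is higher in the orange cells in each plate, at 233 to 398 against 19.9 to 24.0, while *Igf1*, *Igf1r*, *Igfbp4* and *Igfbp5* are lower.

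Within the treated plates, cells with and without a UMI of *Scx* were compared with the plate as a block, leaving *Scx* out of the test. Of the 8 genes, 2 were higher in *Scx*+ cells, *Igfbp4* and *Igfbp5*, where 2.56% of the 10110 genes tested were called. *Igfbp5* was higher in *Scx*+ cells of 8 of 9 plates, at a mean of 561 ± 205 against 433 ± 177 CPM (log2 fold change 0.40 ± 0.07, edgeR adjusted p = 0.00191). *Igfbp4* was higher in 7 of 9, at 1432 ± 376 against 1224 ± 404 (0.24 ± 0.06, adjusted p = 0.0334), and this call was lost without the plates of replicate 1, 2 or 3, with log2 fold changes of 0.19 to 0.30. *Igf1* was lower in *Scx*+ cells of 6 of 9 plates, at -0.31 ± 0.09, but did not pass (adjusted p = 0.0855). The *Scx*+ cells had more UMIs in each plate (medians from 4744 to 10909, against 4166 to 8408). After thinning to 3000 UMIs *Igfbp4* and *Igfbp5* were both called, at 0.35 and 0.48, and so was *Igfbp6*, lower at -0.45 (adjusted p = 0.0497), which stood at -0.39 without thinning (adjusted p = 0.248).

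*Tnmd*, a membrane protein of mature tenocytes, was used in the same way at T6 and T9. The *Tnmd*+ cells numbered 34 to 74 per plate. They had more UMIs than the *Tnmd*- cells in each plate (medians from 7734 to 12520.5, against 7029.5 to 10071). *Igfbp5* and *Igf1r* were higher and *Igfbp6* lower in *Tnmd*+ cells, 3 of 8 genes against a background of 2.93% of 10198 genes. *Igfbp5* stood at 973, 672 and 995 CPM in the *Tnmd*+ cells of the 3 T6 plates and at 501, 619.8 and 841 at T9. In the *Tnmd*- cells it was 744, 374 and 782 at T6 and 231, 209 and 523 at T9. It was thus higher in 6 of 6 plates, with a log2 fold change of 0.81 ± 0.11 (edgeR, adjusted p = 3.6e-05), and remained called without the plates of any 1 replicate number. *Igfbp6* was lower in 6 of 6, at 24.3 ± 8.94 against 45.6 ± 6.76 (-0.91 ± 0.21, adjusted p = 0.0124). Only 5 to 19 UMIs per plate stood behind the *Tnmd*+ value, and the call was lost without replicate 1 (-0.95) or replicate 2 (-0.63). *Igf1r* was higher in 6 of 6 plates (0.40 ± 0.11, adjusted p = 0.0451), a call lost without replicate 1, 2 or 3 (0.30 to 0.47) and with DESeq2 (0.41, adjusted p = 0.0637).

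**Figure D4:**
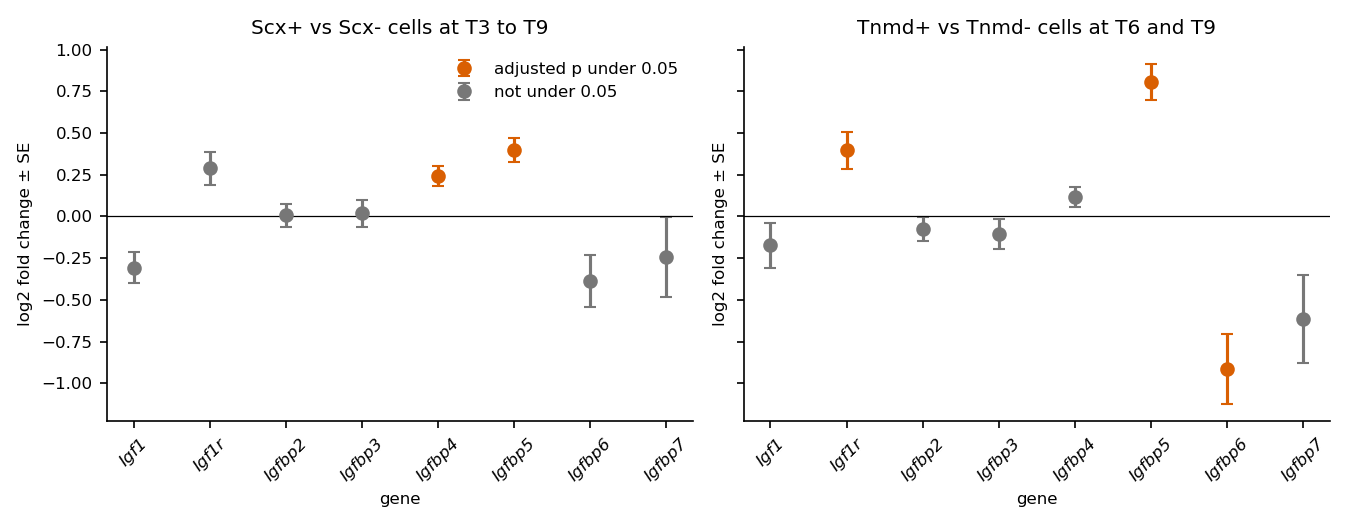
Log2 fold change ± SE (edgeR, plate as a block) of each gene in *Scx*+ against *Scx*- cells of 9 plates (left) and *Tnmd*+ against *Tnmd*- cells of 6 plates (right). Orange points have an adjusted p under 0.05. *Igfbp5* is above 0 in both panels, at 0.40 and 0.81, and *Igfbp6* is at -0.91 on the right.

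Co-detection of members was described by pairs. After thinning, cells at T3 to T9 with UMIs of both genes of a pair were counted against the number that the 2 shares give within each plate. Summed over plates, the ratio was 0.859 to 1.11 over all 28 pairs. Single plates varied more, from 0 to 3.74 for *Igfbp6* with *Igfbp7*. *Igfbp4* was in a mean of 83.3% of thinned cells at T3 and 94.9% at T6, so ratios of its pairs cannot rise far above 1. The highest ratio was that of the neighbours *Igfbp2* and *Igfbp5*, with 1024 cells against 919, above 1 in 9 of 9 plates. So were *Igfbp2* with *Igfbp3* (934 against 888) and *Igfbp4* with *Igfbp5* (1418 against 1387), pairs on different chromosomes. The lowest, *Igf1* with *Igfbp7*, rested on 63 cells. Such small departures in sparse counts are given as a description.

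By Pearson's r of log2 levels over the 12 plates, the genes most like each member were these. *Igf1* ran with *Chodl*, *Ndrg2* and *Col5a2* (0.987 to 0.985), and *Igfbp2* with *Nxph4*, *P4ha1* and *Gsn* (0.995 to 0.991). *Igfbp3* ran with *Hspa2*, *Pla2g4a* and *Gem* (0.991 to 0.987), *Igfbp4* with *Parva* and *Tmem173* (0.985 and 0.983), and *Igfbp5* with *Ncam1*, *Nfia* and *Lpin3* (0.992 to 0.987). *Igfbp6* ran with *Acta2*, *Zfp36* and *Sgms1* (0.984 to 0.977), *Igfbp7* with *Cebpb*, *Tgfbr3* and *Gstm1* (0.985 to 0.955), and *Igf1r* with *Tor1b*, *Actn4* and *Actn1* (0.972 to 0.963). All plates share the time course and the library split, so high values are common.

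In Scx_homoKO tendon, 2 of the 8 genes were called, in opposite directions, against a background of 3.84% of 14602 genes. *Scx* itself had 97.6 and 83.0 CPM in wild type and 23.0 and 26.1 in knockout (log2 fold change -1.88 ± 0.17, edgeR adjusted p = 0.000429), so the knockout libraries matched their labels with reads of the gene left. *Igfbp2* had 29.0 and 22.6 CPM in Scx_Wt and 72.5 and 76.9 in Scx_homoKO. Both knockout samples lay above both wild-type samples, with a log2 fold change of 1.53 ± 0.18 (adjusted p = 0.00174), and the call held without any 1 sample (1.36 to 1.73). *Igfbp3* had 288 and 292 in wild type and 168 and 181 in knockout, at -0.73 ± 0.15 (adjusted p = 0.0307). This call was lost without the first knockout sample (-0.68, adjusted p = 0.125) or the second (-0.79, adjusted p = 0.0636).

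The other 6 genes were not called between the genotypes. Their log2 fold changes ran from -0.26 for *Igfbp7* to 0.22 for *Igfbp4*, and *Igf1*, at 246 and 174 CPM in wild type and 179 and 237 in knockout, differed by -0.02 ± 0.21. Per kilobase of exon, *Igfbp7* was the highest member in wild-type tendon, at 499 ± 24.3 CPM, followed by *Igfbp6* at 299 ± 3.65 (SD, n = 2), *Igfbp4* at 162 ± 36.6, and *Igfbp3* and *Igfbp5* at 92.7 ± 0.952 and 90.0 ± 7.40. *Igf1* (21.2 ± 5.14), *Igfbp2* (14.0 ± 2.46) and *Igf1r* (3.24 ± 0.0476) were lower. So the genes that lead in tendon per kilobase, *Igfbp7* and *Igfbp6*, were the scarcest in culture at T9, at 72.4 ± 8.71 and 50.7 ± 10.5 CPM. The tendon order depends on the division by length. Without it, wild-type means were 714 CPM for *Igfbp4*, 603 for *Igfbp7*, 540 for *Igfbp5* and 332 for *Igfbp6*. The tables were made by different assays and scaled separately, and no test was made across them.

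**Figure D5:**
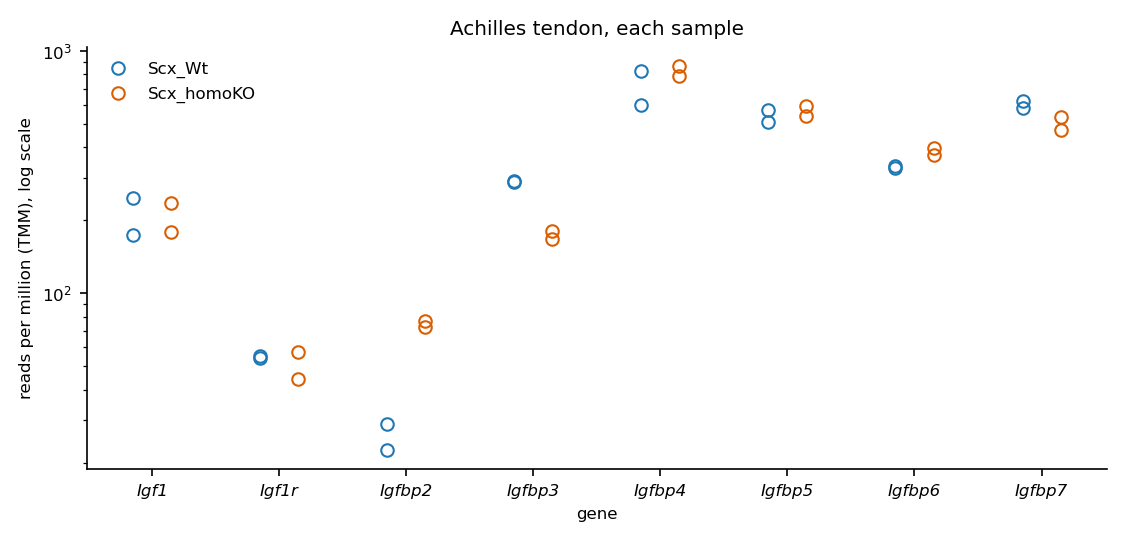
CPM of reads (TMM scale, log axis) of each gene in the 2 wild-type (blue) and 2 knockout (orange) Achilles tendons, each circle 1 sample. *Igfbp2* is higher in both knockout samples (72.5 and 76.9 against 29.0 and 22.6) and *Igfbp3* lower (168 and 181 against 288 and 292).

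Marker lists of several tissues moved with the genotype. Of 8 tenocyte genes 5 were lower in knockout (*Scx*, *Tnmd*, *Mkx*, *Fmod* and *Kera*) and none higher, and the list summed to 155562 to 156887 CPM in wild type and 71573 to 86260 in knockout. The 6 muscle genes summed to 30799 to 59917 against 73916 to 78299, with none called. The 4 cartilage genes summed to 717 to 725 against 24.9 to 40.9, with 2 of 3 tested lower and *Matn1* at 0. The 4 adipocyte genes summed to 1086 to 2296 against 355 to 655 (2 lower), the 5 endothelial genes to 690.2 to 766 against 490.3 to 543 (1 lower), and the 3 nerve genes to 442 to 459 against 31.6 to 4110, a sum that differs between the knockout samples. Leukocyte and erythroid sums overlapped, and of 2 epithelial genes tested both *Krt8* and *Krt18* were higher, on sums of 1.33 to 1.53 against 12.4 to 17.9. Of the keratinocyte and pluripotency lists 1 gene each was tested and not called. The part of these in the change of *Igfbp2* and *Igfbp3* was not tested, and in whole tendon fewer cells of a type and less RNA per cell cannot be told apart.

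The other genes of the IGF axis were counted from a list of 35. In culture, the second ligand, *Igf2*, was far above *Igf1*, at 2407 ± 192 CPM at T0 and 9407 ± 1309 at T9 (log2 fold change 1.96 ± 0.24, edgeR adjusted p = 1.59e-05). Of 30 tested, 12 were higher and 3 lower at T9 than at T0, beside the background of 45.2%. All 4 proteases and protease inhibitors tested rose: *Htra1*, a serine protease that cuts binding proteins (4.57 ± 0.28), *Pappa*, which cuts *Igfbp4* and *Igfbp5* (3.61 ± 0.77), and its inhibitors *Stc1* (1.55 ± 0.30) and *Stc2* (2.80 ± 0.27). The binding-protein relative *Kazald1* rose by 3.90 ± 0.41. Of 22 adaptors and signalling genes, 6 rose, among them *Foxo1* (1.47 ± 0.21), *Foxo3*, *Grb14*, *Pik3r1* and *Shc1* (1.35 ± 0.17), and 3 fell (*Gsk3b*, *Mtor* and *Tsc2*). The level of *Gsk3b* also moved with the library split. The T9 plates with fewer reads without a feature had 151 and 134 CPM of it, and the T9 plate with more had 226. At T0 it stood at 269, 297 and 313. Neither of the other receptors, *Igf2r* and *Insr*, was called in any comparison.

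The count was 11 higher and 1 lower of 30 for T6 against T0 (35.3% of all genes called), and 7 higher and 0 lower for T9 against T3 (14.1%). By step, 9 of the 30 rose and 3 fell (*Akt1*, *Mtor* and *Pik3cb*) from T0 to T3 (33.2%), with *Htra1* going from 5.02 ± 2.57 to 119 ± 10.7 CPM. From T3 to T6 only *Pik3r1* of the 30 was called (1.30 ± 0.27), beside 4.24% of all genes. From T6 to T9 edgeR called 0 of 30, with 3 at an unadjusted p under 0.05 and 1 called by DESeq2. *Htra1* was also higher in *Scx*+ cells (0.80 ± 0.10) and in *Tnmd*+ cells (1.22 ± 0.14), and *Igf2* in *Scx*+ cells (0.20 ± 0.05). In tendon, edgeR called 0 of 32, with 7 at an unadjusted p under 0.05 and 2 called by DESeq2. *Igf2* there was 3241 and 3019.6 CPM in wild type and 4100 and 4864 in knockout, at 0.52 ± 0.23 (adjusted p = 0.298).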

How the data were processed

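The labels and the study's methods give CEL-Seq2 libraries of sorted cells (the same 384 well barcodes in each of 12 plates) and poly(A) RNA-seq of 4 tendons. The deposited tables hold UMI counts per gene and well, and read counts per gene and tendon, made by the authors. The submitters' processing notes name HISAT2 2.2.1, UMI-tools 1.0.1 and featureCounts for the cells, HISAT2 2.0.4 and featureCounts 1.5.0 for tendon, and GRCm38. Whether counting used strand is not given in the sources used here. The 3 entries of the UMI table outside Ensembl (0.0642% of UMIs) were left out.

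Wells with 200 or more genes were kept (4594 of 4608), and UMIs were summed per plate. Both tables were analysed with edgeR 4.0.16 (R 4.3.3) by filterByExpr, TMM and the quasi-likelihood test, with Benjamini-Hochberg adjustment over all genes tested and a threshold of 0.05. For edgeR, the SE was set to the absolute log2 fold change divided by the square root of the test's F statistic. The 4 time points shared 1 fit, so T0 is common to 3 comparisons. Cells with and without a UMI of *Scx* (T3 to T9) or *Tnmd* (T6 and T9) were summed per plate and compared with the plate as a block. Counts per 1000000 (CPM) are TMM-scaled, except within such groups of cells. Alternatives were DESeq2 1.42.0, other scaling and filters, thinning, blocks, single libraries left out, and the split of plates by reads without a feature in the study's mapping summary. Leaving out marker-bearing cells was added after seeing the data. On simulated counts with 200 genes changed 3-fold, 63.5% were recovered for T9 against T0 (13372 genes) and 77% for tendon (14602 genes). Genes called although not changed numbered 12 for T9 against T0 and 30 for tendon. In both this was a larger share of the calls than the threshold of 0.05 names, so calls close to the threshold are less sure.

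The 8 genes were named in full. The other IGF axis genes were counted, with values for some of those called. The 3 genes most like each member were taken by Pearson's r of log2 levels. Values of 2 genes that these rules name are not reported here. The members and lists were chosen with earlier results of these data known. Plates of 1 time point differed by more than sampling noise (chi-square per gene 2.98 to 50.7), as did tendons (20.7 and 34.1).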

Additional observations from a re-analysis of the deposited data

How the results depend on the processing

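Among the fold changes recomputed with 1 library left out, 324 kept direction and call, 24 lost the call, 2 gained it and 18 changed sign. Under the other settings 499 kept direction and call, 12 lost the call, 20 gained it and 13 changed sign. The causes were not tested. Between T3 and T6, where 2 members were called, DESeq2, the library split as a covariate and no filter on low counts each called 4, while only the 6 plates compared and the replicate block each called 1. All genes called moved the same way, from 567 to 899, 1483 and 1010 (of 29624 tested), and to 264 and 404. Between T6 and T9 (1 called) DESeq2 called 2 and the split covariate 3, with all genes called going from 217 to 568 and 813. In *Scx*+ cells (2 called) DESeq2 called 1, no filter 4 and no plate block 0, with 1 of 8 at an unadjusted p under 0.05. In *Tnmd*+ cells (3 called) no plate block called 0, with 2 at an unadjusted p under 0.05. With 1 library or replicate number left out, the members called ranged from 1 to 2 for T6 against T3, 1 to 2 for T9 against T6, 7 to 8 for T9 against T0, 1 to 2 for tendon, 1 to 1 for *Scx*+ and 1 to 2 for *Tnmd*+ cells.

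Signs turned mainly for *Igf1r*. With the split as a covariate and over only plates with more reads without a feature, its log2 fold change was 0.091 and 0.10 for T6 against T0, 0.37 and 0.46 for T9 against T0, and 0.28 and 0.36 for T9 against T6. Left-out plates gave it -0.42 to 0.13, -0.89 to -0.038 and -0.69 to 0.15 in these comparisons, and -0.11 to 0.85 for T9 against T3. Over the same plates *Igfbp2* was -0.19 for T6 against T3 (-0.020 to 0.23 with a plate left out) and *Igfbp7* 0.10 for T3 against T0 (-0.69 to 0.11). In *Scx*+ cells *Igfbp2* was -0.0025 by DESeq2, -0.0032 with RLE size factors and -0.011 with no plate block (-0.041 to 0.048 with a replicate left out), *Igfbp3* was -0.10 after thinning (-0.048 to 0.11), and *Igfbp7* ran from -0.58 to 0.23. In *Tnmd*+ cells *Igfbp3* was 0.038 after thinning (-0.29 to 0.0018). In tendon, leaving out a sample gave -0.25 to 0.25 for *Igf1*, -0.29 to 0.075 for *Igf1r* and -0.014 to 0.15 for *Igfbp5*.

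Thinning to 3000 UMIs gave shares of cells of 23.9%, 30.1%, 42.4% and 49.3% for *Igf1* and 11.8%, 36.2%, 45.8% and 53.5% for *Igfbp3* from T0 to T9. At T0 it gave 43.6% for *Igf1r*, 8.59% for *Igfbp2*, 81.2% for *Igfbp4* (94.4% in wells with 1000 or more genes), 24.2% for *Igfbp5* and 0.840% for *Igfbp7*. At T6 and T9 it gave 60.9% and 63.7% for *Igfbp2*, 94.9% and 92.7% for *Igfbp4*, 53.4% and 37.1% for *Igfbp5*, 8.80% and 10.02% for *Igfbp6*, and 1.68% and 11.7% for *Igfbp7*, and at T3 2.59% for *Igfbp6*.

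Plates with the same replicate number did not deviate together (correlations of -0.56 to 0.52 for plates, 0.07 for tendon), so the numbers were not taken as pairs. The replicate block called 5, 1, 1 and 7 members for T3 against T0, T6 against T3, T9 against T6 and T9 against T0, and 2 in tendon. It took the call from *Igfbp4* between T3 and T6 (0.72, adjusted p = 0.0897) and moved all genes called from 560 to 1108 in tendon and from 217 to 113 between T6 and T9.

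Counts over all genes moved by more than 1.5 times in these cases. They were 264 to 1483 for T6 against T3 (567 reported), 35 to 852 for T9 against T6 (217), 1152 to 3405 for T9 against T3 (1885), 7196 over only plates with more reads without a feature for T6 against T0 (4717), 1415 with no filter in tendon (560), 0 to 505 for *Scx*+ cells (259) and 11 to 166 for *Tnmd*+ cells (299). *Igfbp6* and *Igfbp7* rested on 46 and 51 UMIs at T0, which limits their precision, and 2 tendons per genotype limit that of each tendon value.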
